A study of Mus musculus with 6 samples.

Results

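The membrane-spanning 4A genes (Ms4a) of the mouse were followed in ribosome-bound RNA from a spinal cord injury, at 3 and 7 days after a contusion. The members are the rows whose symbol starts with Ms4a: 8 of 13960 rows, namely Ms4a4b, Ms4a4c, Ms4a4d, Ms4a6b, Ms4a6c, Ms4a6d, Ms4a7 and Ms4a8a. Of these, 6 entered the fit across 13042 genes, and Ms4a4b and Ms4a6c are given by their values for a reason stated below. The libraries are RiboTag precipitates from chimeric mice whose labels read LysMCre:Rplfl/fl > CD45.1 (strain CD45.1). LysM-Cre acts in macrophages and other myeloid cells, neutrophils among them, and turns on an epitope tag on a ribosomal protein, so that tagged ribosomes and their RNA can be pulled down. By the labels, both groups carry this genotype and the same T8 contusion and differ in time only. There are 3 libraries at day 3 and 3 at day 7. Differences that the labels do not name may also lie between the groups. The labels do not say whether a library is 1 animal or a pool, or how the chimeras were made, and no uninjured cord is compared, so the spread behind each p-value is that between libraries and may be technical.

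MS4A genes encode small proteins that cross the membrane several times, with both ends inside the cell. Ms4a1 encodes CD20 of B cells and Ms4a2 the beta chain of the IgE receptor of mast cells, and several other members act as partners of immune receptors. Mouse macrophages and monocytes express members of the Ms4a4, Ms4a6, Ms4a7 and Ms4a8 groups, and Ms4a7 is widely used to tell macrophages that enter or border the nervous system from microglia. In human cells MS4A4A binds dectin-1 (Clec7a), and MS4A genes are tied to the handling of the receptor TREM2.

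Members of the family changed in opposite directions between the times. Ms4a7 rose 3.49-fold, while Ms4a4c was 4.46-fold, Ms4a8a 5.76-fold and Ms4a6d 1.56-fold lower at day 7 in mean FPKM. Of the 6 members tested, 1 rose and 3 fell (limma, adjusted p no larger than 0.05), beside 39.1% of all tested genes called, 18.8% higher and 20.3% lower. The libraries of the 2 times did not overlap for 4 of the 6, beside 55.4% of all tested genes. The median log2 change was -0.47 over the 6 members and -0.04 over all tested genes. Values are FPKM, fragments scaled by transcript length and library depth, so levels of different genes can be set side by side; log2 changes are differences of log2(FPKM + 1), day 7 minus day 3. The read depth is unknown, because only FPKM were deposited. A lower value in such bulk precipitates cannot tell fewer cells of a type from less RNA per cell.

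The members lie in 1 cluster on mouse chromosome 19. In the mm10 coordinates of the authors' table the 8 rows run from Ms4a8a (11067471 to 11081157) through Ms4a7 (11318510 to 11336145), Ms4a4c (11404635 to 11430205), Ms4a4b (11447466 to 11459894), Ms4a6c (11469312 to 11485017), Ms4a6b (11516422 to 11532689) and Ms4a4d (11536842 to 11548707) to Ms4a6d (11586472 to 11604839), a span of 537 kb. All 8 are protein-coding genes in the GENCODE M21 annotation of the same build; Ms4a7, Ms4a8a and Ms4a6d lie on the minus strand and the other 5 on the plus strand. That annotation names 11 further Ms4a genes, Ms4a1, Ms4a2 and Ms4a4a among them, which were not analysed here.

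RefSeq promoter windows (build GRCm38.p6) were found for 7 of the 8 members; Ms4a6d has none in the table. The 250 bases before the start site were compared between members, to show which paralogs share sequence there. Of 21 pairs, 2 shared a run of 12 or more identical bases: Ms4a4b with Ms4a4c and Ms4a6b with Ms4a6c, while the longest run of any other pair was 9 bases. Capitals mark the bases that lie in such shared runs; Ms4a7 has none. The windows are chr19:11407411-11407660 (Ms4a4c), chr19:11443308-11443557 (Ms4a4b), chr19:11469118-11469367 (Ms4a6c) and chr19:11518309-11518558 (Ms4a6b) on the plus strand and chr19:11336147-11336396 (Ms4a7) on the minus strand, each printed 5′ to 3′.
Ms4a4c: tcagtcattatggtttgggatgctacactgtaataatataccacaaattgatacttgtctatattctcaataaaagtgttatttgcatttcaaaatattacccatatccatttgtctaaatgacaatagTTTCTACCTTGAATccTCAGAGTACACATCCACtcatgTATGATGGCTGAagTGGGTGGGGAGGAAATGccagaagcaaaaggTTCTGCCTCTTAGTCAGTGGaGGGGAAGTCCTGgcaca
Ms4a4b: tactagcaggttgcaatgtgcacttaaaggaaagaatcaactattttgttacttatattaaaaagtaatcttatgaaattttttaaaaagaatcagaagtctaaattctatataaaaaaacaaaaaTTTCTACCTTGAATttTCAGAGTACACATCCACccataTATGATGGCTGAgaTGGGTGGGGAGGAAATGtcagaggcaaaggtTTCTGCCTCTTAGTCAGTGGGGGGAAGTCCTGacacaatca
Ms4a6c: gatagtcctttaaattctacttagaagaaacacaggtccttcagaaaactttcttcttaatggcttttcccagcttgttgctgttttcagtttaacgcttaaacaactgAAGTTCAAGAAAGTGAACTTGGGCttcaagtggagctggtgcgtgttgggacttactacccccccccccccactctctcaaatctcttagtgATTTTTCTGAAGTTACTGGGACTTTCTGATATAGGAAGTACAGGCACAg
Ms4a6b: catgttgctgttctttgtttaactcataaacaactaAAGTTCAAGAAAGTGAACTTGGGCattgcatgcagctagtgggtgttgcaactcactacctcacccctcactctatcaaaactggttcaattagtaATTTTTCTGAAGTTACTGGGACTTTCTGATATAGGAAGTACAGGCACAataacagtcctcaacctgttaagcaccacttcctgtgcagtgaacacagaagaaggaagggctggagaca
Ms4a7: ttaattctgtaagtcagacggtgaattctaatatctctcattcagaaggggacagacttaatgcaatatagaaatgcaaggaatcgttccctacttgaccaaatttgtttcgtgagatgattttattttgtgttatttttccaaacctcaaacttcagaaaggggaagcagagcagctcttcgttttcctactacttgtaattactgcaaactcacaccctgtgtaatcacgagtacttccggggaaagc
The shared runs covered 36.8% of the window in Ms4a4b and Ms4a4c, with a longest run of 20 bases, and 28.8% in Ms4a6b and Ms4a6c, with a longest run of 48 bases. The RefSeq start site lies 1 base from the end of the authors' Ms4a7 locus and 56 bases from the start of their Ms4a6c locus. By contrast, it lies 3026 bases inside the authors' Ms4a4c locus, 2137 inside that of Ms4a6b and 3908 before that of Ms4a4b. These last 3 windows may therefore not be the promoters of the transcripts measured.

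Motifs of myeloid and interferon regulation were looked for on both strands in the 8 whole windows of these 7 genes, from 250 bases before to 50 after the start, 2 of them for Ms4a7. The interferon response element, searched as GAAA and a further GAAA 2 bases on and held by 3.44% of all 32851 RefSeq windows of that length, the gamma-activated site TTCNNNGAA (8.30%) and the PU.1 site GAGGAAGT (3.20%) matched in none of the 8. The AP-1 site TGANTCA (7.81%) matched in Ms4a8a, in Ms4a4b (after the start site) and in the second window of Ms4a7, and the CEBP site TTGCNNAA (10.8%) in Ms4a4d. A missing match says only that these letters are not in the window.

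Ms4a7 was the member that rose. It measured 30.9, 44.6 and 53.7 FPKM in the day 3 libraries and 129.99, 159 and 161 FPKM in the day 7 libraries. Every day 7 library lay above every day 3 library, as in 26.8% of all tested genes. The means were 43.1 ± 11.5 and 150.2 ± 17.5 FPKM (SD, n = 3), a log2 change of 1.81 ± 0.20 (SE; limma adjusted p = 0.00100). It moved from the 87.6th percentile of tested genes by level at day 3 to the 96.7th at day 7. The call held in all 16 alternatives run, with log2 changes from 1.59 to 1.98.

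**Figure D1:**
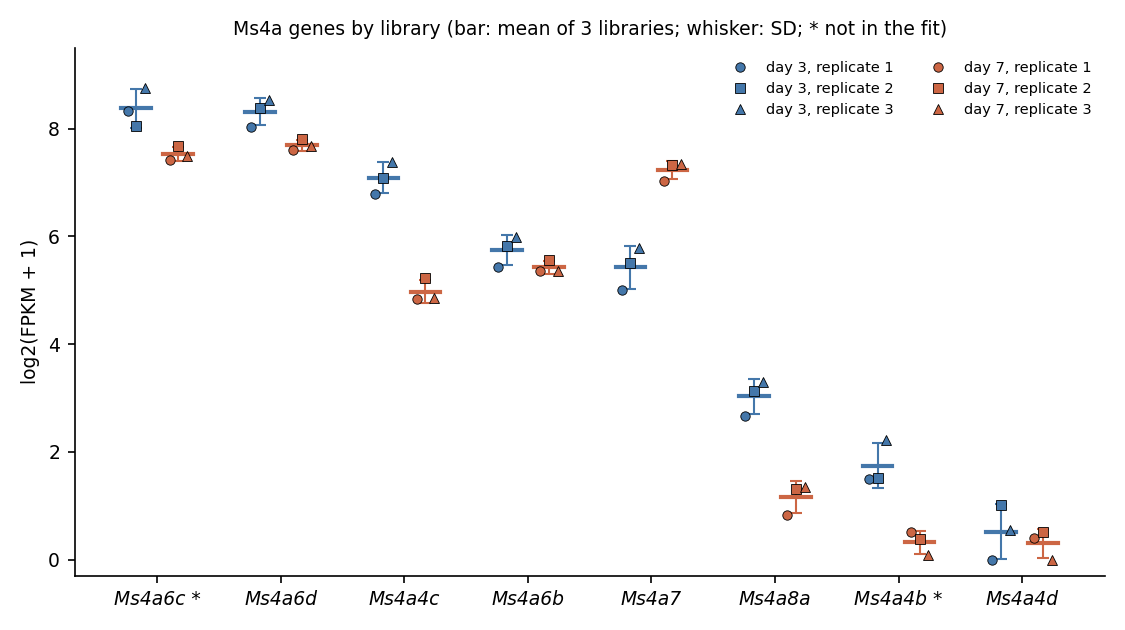
Level of each Ms4a gene in each library on the log2(FPKM + 1) scale, day 3 in blue and day 7 in orange, with the mean and SD of 3 libraries; an asterisk marks the 2 genes that were not in the fit. Ms4a7 is the gene whose day 7 libraries lie above its day 3 libraries (129.99 to 161 against 30.9 to 53.7 FPKM). Those of Ms4a4c, Ms4a6d and Ms4a8a lie below, as do those of Ms4a6c and Ms4a4b, which were not in the fit.

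Ms4a4c, a member often listed among interferon-induced genes of monocytes, was lower in every library of day 7. It measured 109.9, 135 and 165 FPKM at day 3 and 27.5, 36.3 and 28.1 FPKM at day 7. Every day 7 library lay below every day 3 library, as in 28.6% of all tested genes. The means were 137 ± 27.4 and 30.6 ± 4.92 FPKM, a log2 change of -2.11 ± 0.17 (limma adjusted p = 3.96e-04), called in all 16 alternatives (-2.30 to -1.97).

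Ms4a8a, described on alternatively activated macrophages, was low at both times. It measured 5.33, 7.70 and 8.87 FPKM at day 3 and 0.773, 1.47 and 1.56 FPKM at day 7, and the times did not overlap. The means were 7.30 ± 1.80 and 1.27 ± 0.431 FPKM, with a log2 change of -1.87 ± 0.23 (limma adjusted p = 0.00137). At such levels the pseudocount shrinks the change: it was -2.46 with a pseudocount of 0.1. Its call held in all 16 alternatives.

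Ms4a6c and Ms4a6d had the highest listed means of the family at both times, and Ms4a6b was lower. On the log2 scale the Ms4a6 genes differed less between the times than Ms4a7, Ms4a4c and Ms4a8a. Ms4a6d, expressed by macrophages, measured 261, 331 and 369 FPKM at day 3 and 192, 222 and 203 FPKM at day 7. The times did not overlap (means 320.4 ± 54.97 and 206 ± 15.2 FPKM; log2 -0.62 ± 0.15; limma adjusted p = 0.0156). Its call rested on the day 7 libraries: without day 7 replicate 1 the adjusted p was 0.0574 and without day 7 replicate 3 it was 0.0536, at log2 changes of -0.58 and -0.61. Ms4a6b, known from T cells and also expressed by myeloid cells, measured 42.2, 55.3 and 62.3 FPKM at day 3 and 39.8, 46.1 and 40.2 FPKM at day 7. Its times overlapped and it was not called (log2 -0.32 ± 0.15, 95% interval -0.67 to 0.04; limma adjusted p = 0.131). It was called without day 3 replicate 1, its lowest day 3 library (log2 -0.47, adjusted p = 0.0208), and with quantile normalization (log2 -0.54, adjusted p = 0.0308), and over all 16 alternatives its adjusted p ran from 0.0208 to 0.330. The authors' deposited table gives Ms4a6b a q-value of 0.0458.

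Ms4a6c had the highest mean of the family at day 3, with a doubt about its values. It is listed at 321, 262 and 431 FPKM at day 3 and at 169.9, 204 and 179.9 FPKM at day 7, and the times did not overlap. The authors' deposited table gives its group values as 1.34 and 0.129 FPKM, with a q-value of 0.377, so the library columns and the authors' test do not refer to the same quantity. It is among 838 rows set aside because their libraries miss the authors' group value by over 1%. In a fit that included such rows, added after seeing the data, its log2 change was -0.84 ± 0.19 (limma adjusted p = 0.0117 over 13875 genes). In GENCODE the non-coding gene BE692007 (minus strand, 11470166 to 11484578) lies across Ms4a6c, and shares 1088 of the 2050 exonic bases of Ms4a6c. Whether the counting used strand is not given in the sources used here, so reads of the pair may not have been told apart.

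Ms4a4b and Ms4a4d were near the floor. Ms4a4b, best known from T cells, is listed at 1.82, 1.85 and 3.67 FPKM at day 3 and at 0.416, 0.295 and 0.0545 FPKM at day 7. The authors' deposited table gives its day 3 value as 3.66 FPKM, above the mean of 2.45 over the library columns, and it too was set aside. In the added fit its log2 change was -1.43 ± 0.25 (limma adjusted p = 0.00492). Ms4a4d is listed at 0, 1.02 and 0.458 FPKM at day 3 and at 0.321, 0.424 and 0 FPKM at day 7, which overlap (log2 -0.21 ± 0.29, 95% interval -0.89 to 0.46; limma adjusted p = 0.566). The authors' filtered table holds the other 6 members and leaves these out.

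Members with near-identical stretches may split or share reads. Of the 50-base words of the longest GENCODE transcript, 8.48% in Ms4a4c, 4.19% in Ms4a4b, 5.66% in Ms4a6b, 6.08% in Ms4a6c and 2.92% in Ms4a6d also occur in another Ms4a transcript. Ms4a4c shares 134 such words with Ms4a4b. Ms4a7 and Ms4a8a share none with any annotated transcript of another gene. Shorter or inexact matches were not looked for, so a split of reads at such matches was not tested. The read length of the libraries is not given in the sources used here, so the word length is a choice and not theirs.

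The order of the levels changed with time. At day 3 it ran Ms4a6c, Ms4a6d, Ms4a4c, Ms4a6b, Ms4a7, Ms4a8a, Ms4a4b, Ms4a4d by mean. Ms4a6c and Ms4a6d overlapped there, as did Ms4a6b and Ms4a7, although Ms4a7 was below Ms4a6b within each day 3 library. At day 7 it ran Ms4a6d, Ms4a6c, Ms4a7, Ms4a6b, Ms4a4c, Ms4a8a, Ms4a4b, Ms4a4d, and the pairs whose libraries overlapped were Ms4a6d with Ms4a6c and Ms4a4b with Ms4a4d. Ms4a7 thus stood above Ms4a6b and Ms4a4c in every day 7 library and below both in every day 3 library.

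As a share of the summed FPKM of the 6 tested members, Ms4a7 made up 6.87%, 7.75% and 8.15% of the signal at day 3 and 33.3%, 34.2% and 37.1% at day 7. Ms4a4c went the other way, from 24.5%, 23.5% and 24.96% to 7.04%, 7.78% and 6.47%. Ms4a6d was the largest of these 6 shares at both times, at 57.2% ± 1.08 and 47.9% ± 1.23, and Ms4a6b held 9.49% ± 0.118 and 9.79% ± 0.475 (SD, n = 3). The 2 times did not overlap for Ms4a7, Ms4a4c, Ms4a6d and Ms4a8a (exact permutation test, two-sided, p = 0.1 each, the smallest that 3 against 3 libraries allow; 0.15 after Benjamini-Hochberg adjustment over the 6 members). For Ms4a6b the exact permutation p was 0.4. The fall of Ms4a6d rests on leaving Ms4a6c out of the sum. With all 8 rows summed, Ms4a6d held 35.7% ± 3.28 and 33.5% ± 0.672, its times overlapped (exact permutation p = 0.3), and Ms4a6c was the largest share at day 3, with 37.4% and then 30.0%. Ms4a7 held 4.74% and 24.4% of that sum and Ms4a4c 15.1% and 4.96%, a difference of -10.2 points beside -17.2 over the 6 (exact permutation p = 0.1 for each gene). The sum itself was 561 ± 106 FPKM at day 3 and 430.2 ± 37.8 FPKM at day 7 (exact permutation p = 0.2 for the tested members, 0.1 for all 8 rows). Shares of a library add to a fixed total and so are not independent of each other.

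**Figure D2:**
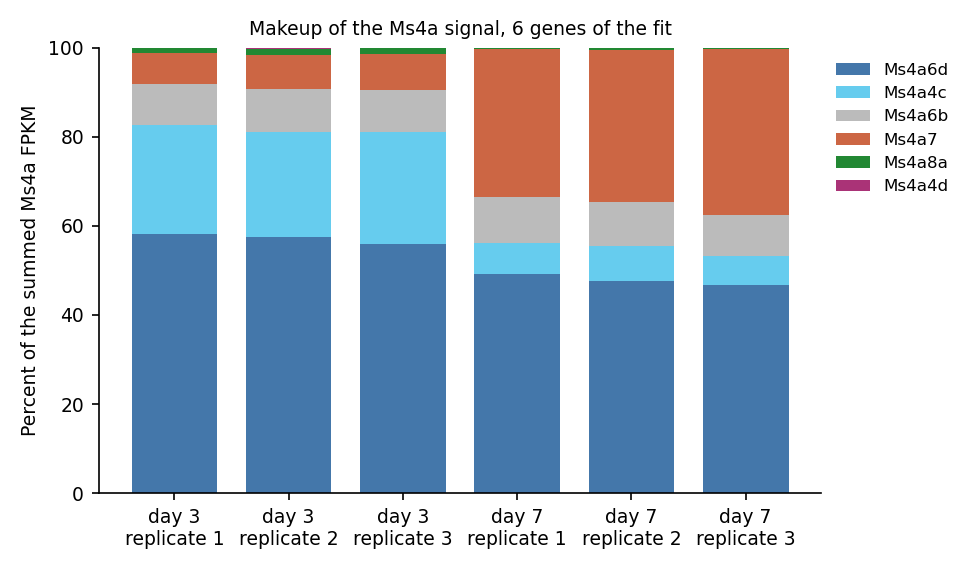
Percent of the summed FPKM of the 6 tested Ms4a genes that each gene holds, 1 bar for each library. Ms4a7 takes 6.87% to 8.15% of the bar at day 3 and 33.3% to 37.1% at day 7, and Ms4a4c 23.5% to 24.96% and 6.47% to 7.78%.

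Ratios within a library do not depend on how libraries were scaled, and were close among libraries of 1 time for some members. Ms4a6b stood at 0.162, 0.167 and 0.169 of Ms4a6d at day 3 and at 0.207, 0.2075 and 0.198 at day 7. These genes each varied by 17.2% to 19.2% (coefficient of variation) between the day 3 libraries. Both were lowest in replicate 1 and highest in replicate 3 there, an order that Ms4a4c, Ms4a7 and Ms4a8a share. The ratio of Ms4a4c to Ms4a7 was 3.56, 3.03 and 3.06 at day 3 and 0.211, 0.228 and 0.174 at day 7. The ratio of Ms4a6c to Ms4a6d varied more at day 3 (1.23, 0.793 and 1.17) than at day 7 (0.884, 0.917 and 0.886), and its times overlapped. Of 21 pairs among the 7 members with a mean of 1 FPKM or more, the ratio did not overlap between times in 17; pairs share members and are not independent. Of these pairs 11 use Ms4a4b or Ms4a6c, whose values are in doubt, and among the other 10 the ratio did not overlap in 9. Each of the 17 had an exact permutation p of 0.1, the smallest possible (0.124 adjusted over the 21 pairs). Pairs of other genes were not counted, so these counts are not shown to be particular to the family. Of all tested genes taken singly, 55.4% did not overlap between times.

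The genes set beside the family as partners, fixed as a list, were those of dectin-1, TREM2 and Fc receptor signalling. Of 12, 10 were tested. By limma 6 were higher and 0 lower at day 7, beside 18.8% and 20.3% of all tested genes. At an unadjusted limma p of 0.05 also 0 were lower. The median log2 change was 0.31, beside -0.04 for all tested genes. Clec7a measured 48.0, 70.04 and 57.6 FPKM at day 3 and 449.99, 410.1 and 367 FPKM at day 7 (log2 2.80 ± 0.15; limma adjusted p = 9.33e-05). Trem2 went from 290.3 ± 43.1 to 895 ± 137 FPKM (log2 1.62) and its adaptor Tyrobp from 242 ± 61.1 to 896 ± 167 FPKM (log2 1.90). The kinase Syk rose from 45.8 ± 7.97 to 71.7 ± 5.12 FPKM (log2 0.65 ± 0.14; limma adjusted p = 0.0110); quantile normalization took its adjusted p to 0.0608. Smaller rises were called for the kinase Lyn, from 72.8 ± 4.03 to 90.5 ± 1.95 FPKM, and the adaptor Card9, from 18.9 ± 1.11 to 23.7 ± 1.71 FPKM. Lyn lost its call when any 1 day 7 library was left out (limma adjusted p of 0.0696 to 0.0886) and under 3 other settings. Card9 lost its call when any 1 library except day 3 replicate 1 was left out (0.0764 to 0.148) and under the same 3 settings, which were quantile normalization, one prior variance and centring on macrophage markers. The kinases Btk (log2 -0.19 ± 0.19) and Fyn (0.09 ± 0.14) and the phospholipase Plcg2 (0.09 ± 0.09) were not called. Without day 3 replicate 2, Btk was called lower (log2 -0.40, limma adjusted p = 0.0469). Ms4a7 thus changed in the direction of Clec7a, Trem2 and Tyrobp, and Ms4a4c, Ms4a6d and Ms4a8a opposite to them.

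**Figure D3:**
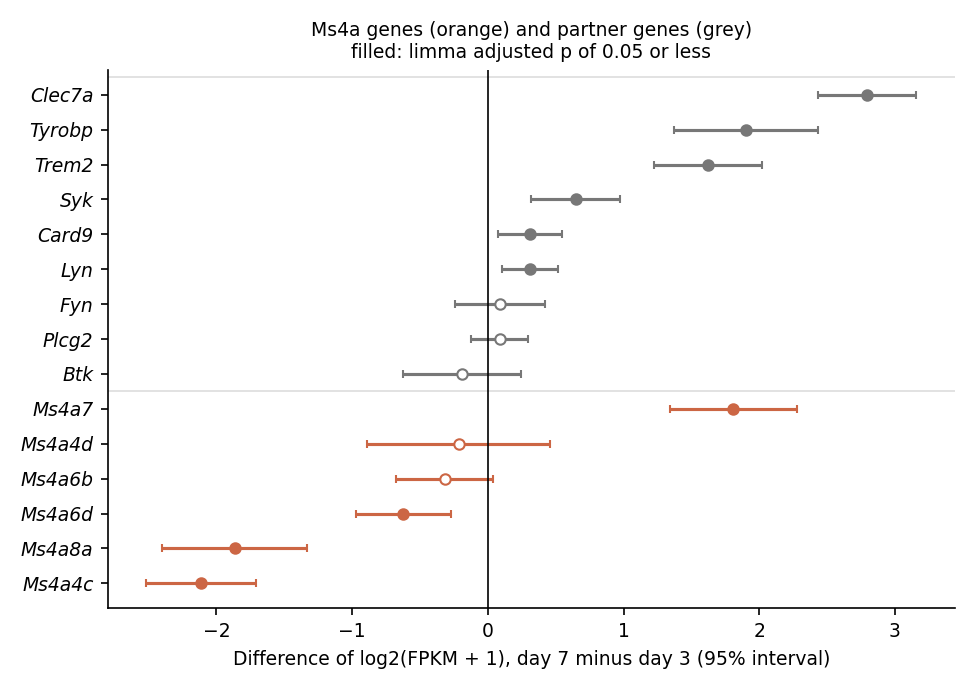
Difference of log2(FPKM + 1) between day 7 and day 3 with its 95% interval for 6 Ms4a genes (orange) and the partner genes with values reported here (grey); filled points passed a limma adjusted p of 0.05. Ms4a7 (1.81) lies beside Trem2 (1.62) and Tyrobp (1.90), and Ms4a4c (-2.11) and Ms4a8a (-1.87) lie at the other end.

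For each tested member, the 3 nearest genes were sought among 5767 genes with a mean of 10 FPKM or more, by the root mean square difference of log2(FPKM + 1) over the 6 libraries, each gene centred on its own mean. These distances are descriptions. Ms4a7 was nearest to Glipr1 (0.10), Il18bp (0.11) and the proton channel gene Hvcn1 (0.15). Il18bp measured 17.4, 22.2 and 25.3 FPKM at day 3 and 69.2, 82.99 and 72.8 FPKM at day 7. Ms4a4c was nearest to Ch25h, the cholesterol hydroxylase (0.12), Pydc4 (0.15) and the antiviral gene Oas2 (0.15). Ms4a6b was nearest to cathepsin C, Ctsc (0.04), Dtymk (0.06) and Ccr2 (0.07), the chemokine receptor of inflammatory monocytes. Ccr2 measured 89.3, 127 and 138 FPKM at day 3 and 80.0, 94.1 and 89.6 FPKM at day 7, and like Ms4a6b it was lowest in replicate 1 of either time. Ms4a6d was nearest to Cdk16 (0.06), the proteasome gene Psmb5 (0.07) and the sialic acid receptor Siglec1 (0.07). Ms4a8a was nearest to Ch25h (0.13), Mpdz (0.13) and Xist (0.14), and Ms4a4d, which is near 0, to Hdac11 (0.06), Cycs (0.08) and Pttg1 (0.11). Xist measured 10.5, 20.1 and 19.4 FPKM at day 3 and 2.76, 3.67 and 3.83 FPKM at day 7. The cause of that difference was not tested.

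Other genes of the same stretch of chromosome 19 were called in both directions, and most were not called. Of 31 genes within 1 Mb of the outermost members, 30 were tested, 8 were higher and 4 were lower, with a median log2 change of -0.03 beside -0.04 for all tested genes. Over all tested genes 18.8% were higher and 20.3% lower. Mpeg1, which encodes the pore-forming perforin-2 of macrophages, rose from 743 ± 77.6 to 1148 ± 33.9 FPKM (log2 0.63). The transporter Slc15a3 rose from 49.2 ± 7.92 to 80.6 ± 8.61 FPKM (log2 0.71) and Dtx4 from 10.3 ± 1.44 to 16.4 ± 0.986 FPKM (log2 0.63). Sdhaf2 (log2 0.44) and the desaturase gene Fads1 (log2 0.34) rose, and Ccdc86 (log2 -0.74) and Cpsf7 (log2 -0.37) fell. Stx3 rose too (log2 0.50), but the authors' locus for it is the same as for Mrpl16, so these may not be told apart. These 8 are the called neighbours at 10 FPKM or more at either time. The centre of Ms4a4c, which fell, lies 90.1 kb from that of Ms4a7, and no other row lies between. GENCODE places Ms4a4a, which has no row, between these genes. Without day 7 replicate 2, 3 neighbours were higher, and without day 7 replicate 3, 5 were.

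**Figure D4:**
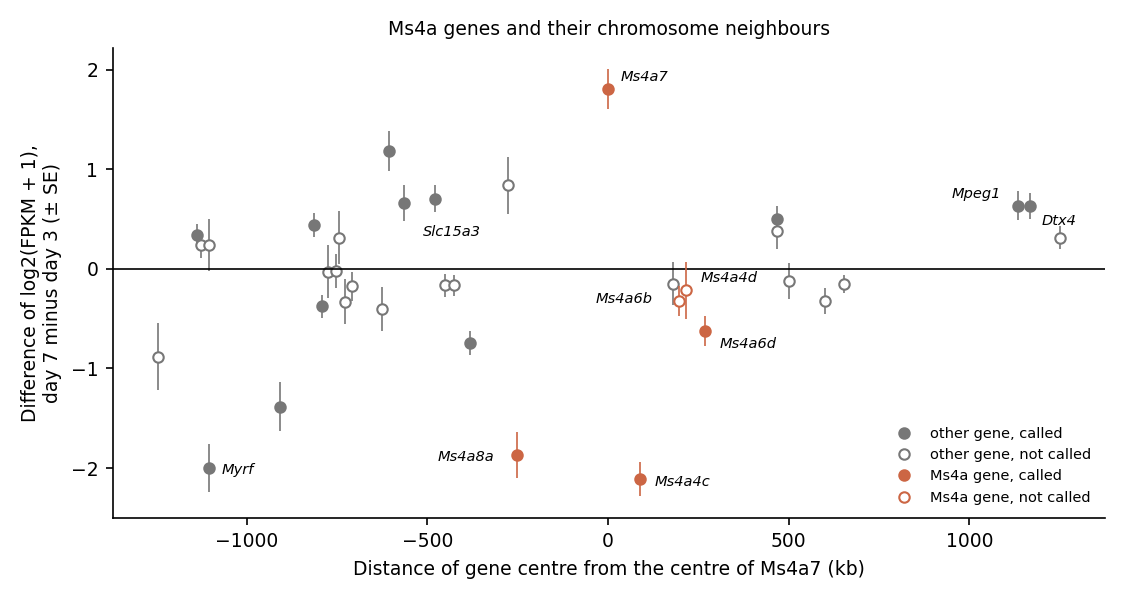
Difference of log2(FPKM + 1), day 7 minus day 3, with its SE, against the distance of each gene's centre from that of Ms4a7 in kb, for the 6 tested Ms4a genes (orange) and 30 neighbours (grey); filled points were called. Ms4a7 (1.81) and Ms4a4c (-2.11) are next to each other among the genes drawn, at opposite ends of the scale, and 18 of the neighbours were not called.

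The markers of macrophages and of other cells moved over the same days. Of all tested genes, 18.8% were higher and 20.3% lower. Of the 10 macrophage markers fixed, 6 were tested: Csf1r (144 ± 5.57 to 198 ± 12.02 FPKM), Mertk (42.6 ± 2.999 to 77.4 ± 3.87 FPKM) and Aif1 were higher, Fcgr1 (365 ± 84.8 to 211 ± 23.8 FPKM) and Cd14 were lower, and Itgam was not called (562 ± 8.97 and 616 ± 6.06 FPKM). An alternative added after seeing the data centred each library on these markers. Ms4a7 then changed by 1.73, Ms4a4c by -2.19, Ms4a8a by -1.95 and Ms4a6d by -0.70, all called. As these markers moved both ways, the centring took the median log2 change of all tested genes only from -0.04 to -0.12. The part of macrophage amount in the Ms4a changes was thus not tested. Inflammatory monocyte markers were lower in 4 of 6 tested, with Plac8 at 78.6 ± 10.8 and 5.27 ± 1.87 FPKM and Vcan at 25.2 ± 5.13 and 4.59 ± 1.01 FPKM. Their sum was 458 to 525 FPKM at day 3 and 172 to 226 FPKM at day 7. Interferon response genes were lower in 10 of 10 tested, with a sum of 706 to 958 and of 275 to 302 FPKM. Irf7, a factor that drives interferon genes, fell from 93.6 ± 17.5 to 16.2 ± 1.91 FPKM and Isg15 from 50.8 ± 7.79 to 6.87 ± 1.31 FPKM; the chemokine gene Cxcl10 fell from 34.6 ± 7.89 to 3.11 ± 0.646 FPKM. These lists moved in the direction of Ms4a4c, Ms4a8a and Ms4a6d, and their part in those results was not tested.

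Microglia markers were higher in 7 of 8 tested, beside 18.8% of all tested genes, in the direction of Ms4a7. The 7 of them reported here summed to 149 to 184 FPKM at day 3 and to 325 to 355 FPKM at day 7. Cx3cr1 rose from 17.4 ± 2.30 to 72.8 ± 7.05 FPKM and P2ry13 from 7.51 ± 2.91 to 20.9 ± 2.59 FPKM. The authors' locus for P2ry13 is the same as for P2ry12, so these markers may not be told apart. Sall1, a defining factor of microglia, was near 0 at both times (0.845 ± 0.489 and 0.167 ± 0.194 FPKM) and not called. The part of these markers in the rise of Ms4a7 was not tested. Neuron, oligodendrocyte and astrocyte markers, 17 tested, were lower in 15, beside 20.3% of all tested genes. Their sums at day 3 were 125 to 284, 283 to 552 and 186 to 549 FPKM, with the highest in replicate 2, and at day 7 they were 36.6 to 48.9, 120.4 to 147 and 98.9 to 123 FPKM. The Ms4a values of day 3 replicate 2 lay between those of the other day 3 libraries for Ms4a4c, Ms4a6b, Ms4a6d, Ms4a7 and Ms4a8a. Without that library the log2 changes were 1.85 for Ms4a7, -2.11 for Ms4a4c, -1.82 for Ms4a8a and -0.59 for Ms4a6d, all called. The other day 3 libraries also had higher sums than every day 7 library, so leaving that library out does not remove the difference between times. The part of these neural markers in the Ms4a changes was not tested.

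Markers of the lymphoid, mast and granulocyte cells in which other MS4A genes are known were also followed. Their calls stand beside 18.8% of all tested genes higher and 20.3% lower. The 3 tested B cell markers summed to 6.33 to 9.15 FPKM at day 3 and to 16.8 to 20.1 FPKM at day 7. Cd22 (3.96 ± 0.646 to 11.6 ± 1.87 FPKM) and Cd79b (0.923 ± 0.356 to 3.10 ± 0.336 FPKM) were higher, and Ighm was not called. The 3 tested T and NK cell markers summed to at most 2.99 FPKM in any library and 0 were called by limma (Gzma, at an unadjusted limma p of 0.0217, was the 1 under 0.05). Kit, the 1 tested mast cell marker, was lower (3.87 ± 1.05 to 1.11 ± 0.308 FPKM). Of 5 neutrophil markers, S100a8 was higher (18.2 ± 3.73 to 28.1 ± 5.81 FPKM) and S100a9 was lower (20.1 ± 3.88 to 7.69 ± 2.99 FPKM). The other 3 were not called, and the median log2 change of the 5 was -0.78. With any 1 library except day 7 replicate 3 left out, S100a8 was no longer called. Of 2 plasma cell markers 0 were called by limma, also 0 at an unadjusted p of 0.05.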

How the data were processed

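Per the labels' protocols, libraries came from RiboTag precipitates by the ScriptSeq v2 kit. TopHat2 2.0.12, Cufflinks 2.2, Cuffdiff 2.2.1 and mm10 are named in the submitters' processing notes, with no role or order. The authors deposited, per the file headers, an FPKM value per gene and library, a group value in FPKM, a log2 fold change, a test statistic (a score with no fixed range), and a p-value and q-value from their own test. The scaling of libraries, the rule behind the filtered table and whether locus starts count from 0 or 1 are not given in the sources used here.

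Of 13960 rows of the unfiltered table, 918 were set aside: 45 with a status other than OK, 838 whose libraries miss the authors' group value by over 1%, 14 with 0 in a library beside 100 FPKM or more, and 32 of repeated symbols, some under several rules. The other 13042 were fitted as log2(FPKM + 1) with limma 3.58.1 (R 4.3.3) with a mean-dependent prior variance, two-sided, with Benjamini-Hochberg adjustment over all of them, and called at 0.05 or less. An exact test of 3 against 3 cannot go below 0.1, so calls rest on the variance limma shares across genes. The fit was also run on simulated data with independent normal noise. Variation shared by the genes of a library was not simulated, so that run does not show how calls hold under it. Libraries had 10248 to 11675 tested genes at 1 FPKM or more; the top 50 genes took 27.6% of all FPKM in day 3 replicate 3 and 14.6% to 19.7% elsewhere. Shares and ratios used exact permutation tests (scipy 1.17.1; Python 3.11.15).

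The members and lists were chosen with earlier results of these data known. Named are all Ms4a rows, all partners with a row, the 3 nearest genes of each tested member, called neighbours at 10 FPKM or more at either time, and up to 3 called members of each marker and interferon list, by size of change, at 1 FPKM or more. Csf1r, Aif1, Itgam, Sall1, Ighm, Gzma, BE692007, P2ry12 and Mrpl16 were named after their values or loci were seen. The values of 1 partner and 1 microglia marker are not reported here. Alternatives were other pseudocounts (0.1, 0.5), a filter at a mean of 1 FPKM, quantile normalization, median centring, one prior variance, the replicate block, the filtered table, leaving out each library and, added later, centring on macrophage markers and including rows with unmatched means. Promoters and motifs come from RefSeq tables, annotation from GENCODE M21.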

Additional observations from a re-analysis of the deposited data

How the results depend on the processing

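Ms4a7, Ms4a4c and Ms4a8a kept their direction and their call in all 16 alternatives, and Ms4a6d in 14 of them, the exceptions being given above. Leaving out 1 library at a time, the log2 change ran from -0.76 to -0.51 for Ms4a6d, from -0.47 to -0.20 for Ms4a6b and from -0.474 to 0.0318 for Ms4a4d (the highest without day 3 replicate 2). With quantile normalization the changes were -0.54 for Ms4a6b, 0.22 for Ms4a4d, -0.16 for Plcg2 and -0.12 for Fyn; the partners then had 3 higher and 1 lower, the neighbours 7 lower, the neutrophil markers 0 higher and the plasma cell markers 1 higher. The cause was not tested. The filtered table, which tests fewer genes, gave 1419 genes lower in place of 2645, with 2 neighbours, 3 neuron, 3 oligodendrocyte, 2 astrocyte and 0 mast cell markers lower. T and NK cell markers had 1 lower with pseudocounts of 0.1 and 0.5, with one prior variance and with centring on macrophage markers; neutrophil markers had 0 higher with the last 2 settings, and neighbours 5 higher with the last. Without 1 library the genes higher ran from 1572 to 2207 (main 2453) and lower from 1697 to 2565, the lowest counts without day 7 replicate 2. In the same way 3 to 8 neighbours were higher, 0 to 2 partners lower, 1 to 2 macrophage, 0 to 1 microglia, 0 to 1 T and NK cell, 1 to 2 neutrophil and 1 to 5 astrocyte markers lower, and 0 to 1 neutrophil markers higher. Day 3 replicate 1 moved the microglia, T and NK cell and neutrophil counts, day 3 replicate 2 the partners and neutrophil markers, day 3 replicate 3 the neutrophil and astrocyte markers, day 7 replicates 1 and 2 the astrocyte and neutrophil markers, day 7 replicate 1 the macrophage and day 7 replicate 3 the astrocyte markers. The share of Ms4a6b in the family sum, 0.30 points higher at day 7, was -3.38 points with Ms4a6d left out of the sum, which changes the denominator. That of Ms4a4d, -0.02 points, ran from -0.0654 to 0.0230 without 1 library. Same-numbered libraries of the 2 times did not deviate together (r = 0.0995, 0.00545 and 0.00465 for replicates 1, 2 and 3), and not every library correlated best with its own number. With the replicate number as a block 2450 genes were higher and 2425 lower, 2 neutrophil markers were lower, and no Ms4a call changed.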
